A study of Homo sapiens and Mus musculus with 19 samples.

Results

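The 8 genes SAMD11, CA4, ITM2C, DHX58, DPF1, KIRREL1, ETV4 and CCDC6 were chosen because a large share of their CCGG sites' tags carried 5-hydroxymethylcytosine (5hmC) in the human embryonic stem cell line H1ES. They are 8 of 19126 autosomal protein-coding genes of the RefSeq table. Each gene was read over its span in GRCh38 and 2000 bp before its start. For CA4, DHX58, KIRREL1 and ETV4, whose strand was not known here, 2000 bp were taken at both ends. This gave 703 CCGG sites in all. Because the H1ES 5hmC share chose the genes, it is described below and not tested. The choice holds genes of high share, not the highest of all: among 13125 gene regions with at least 100 H1ES tags the 8 ranked from 34 (CA4) to 198 (ETV4), and among 8933 with at least 200 tags from 4 to 65.

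The libraries came from DARESOME, an assay that sorts CCGG sites into unmethylated, 5-methylcytosine (5mC) and 5hmC sites by cutting genomic DNA with HpaII and MspI and ligating a different tag at each step. H1ES and the hepatoma line HepG2 were each measured as 1000 cells in 2 libraries and as single cells in 5 libraries, with no treatment given for either line. The labels do not say whether libraries of a line came from separate cultures, so their spread may be technical. The 1000-cell libraries held 4911898 to 6644517 tags, the H1ES cells 757767 to 1543724 and the HepG2 cells 526207 to 2455908. On the autosomes, 1.52% and 1.69% of H1ES tags were 5hmC against 0.221% and 0.277% in HepG2, and 4.24% and 4.73% were unmethylated against 38.0% and 39.1%. Within 1000 bp of their starts, the pluripotency genes L1TD1 and ZFP42 were 81.1% and 83.1% unmethylated in H1ES and 25.5% and 19.1% in HepG2, whereas DPPA4 was alike (78.9% and 79.2%). The hepatocyte genes APOH, F2 and HNF4A were at most 1.61% unmethylated in H1ES and at least 89.5% in HepG2, and SERPINA1 went from 2.33% to 37.1%.

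5hmC is made from 5mC by the TET dioxygenases, which can oxidise it further until base excision repair restores an unmodified cytosine. It is known both as an intermediate of demethylation and as a lasting mark in gene bodies and enhancers, and it is found in embryonic stem cells and lost in many cancer cells and cultured lines. Methylation of the CpG within CCGG blocks HpaII but not MspI, which lets the pair separate modified from unmodified sites. The step that tells 5hmC from 5mC is not described here.

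The recognition letters behind every value are shown in 2 promoter windows, since at these starts the assay had sites but hardly any tags. RefSeq promoters of GRCh38.p14, 250 bases before to 50 after a start, were given for 4 of the 8 genes, SAMD11, ITM2C, DPF1 and CCDC6. Capitals mark CCGG, searched as those 4 letters, which read the same on both strands; 63.13% of 35116 promoters of this length hold at least 1.
SAMD11 promoter, chr1:925481-925780, plus strand: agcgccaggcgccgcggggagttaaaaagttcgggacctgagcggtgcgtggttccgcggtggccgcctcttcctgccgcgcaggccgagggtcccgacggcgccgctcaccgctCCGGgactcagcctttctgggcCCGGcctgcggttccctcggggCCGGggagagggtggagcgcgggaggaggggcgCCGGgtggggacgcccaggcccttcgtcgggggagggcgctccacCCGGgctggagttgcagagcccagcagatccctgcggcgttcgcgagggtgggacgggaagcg
ITM2C promoter, chr2:230864692-230864991, plus strand: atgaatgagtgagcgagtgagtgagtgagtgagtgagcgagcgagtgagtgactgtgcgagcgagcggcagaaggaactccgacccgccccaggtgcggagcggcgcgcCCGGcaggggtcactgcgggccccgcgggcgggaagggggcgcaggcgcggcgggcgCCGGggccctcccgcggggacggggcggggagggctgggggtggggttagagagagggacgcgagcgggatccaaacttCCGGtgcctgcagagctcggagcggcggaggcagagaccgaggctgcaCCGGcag
The SAMD11 window lies inside the gene's span, before a start further downstream than the first, and holds 5 CCGG. In the H1ES 1000-cell libraries 2 tags fell on them, both unmethylated, and none in HepG2. The ITM2C window also lies inside the span, at a start further downstream (230864942), and holds 4 CCGG. Tags fell at site 230864802 only, 1 in H1ES and 5 in HepG2, all unmethylated. The promoter at the first start of ITM2C holds no CCGG. The promoters of DPF1 and CCDC6 hold 3 CCGG each and had no tag in either line. No 5hmC tag was seen at any of these promoters, but with so few tags 5hmC was not measurable there. Nearly all 5hmC tags described below lie further inside the genes.

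In the 2 H1ES 1000-cell libraries together, the 8 regions held 158 5hmC tags among 2782, a share of 5.68%, against 1.62% over all other autosomal tags. By library, the share was 5.10% (84 of 1647 tags) and 6.52% (74 of 1135), which is 3.01 and 4.29 times that of the rest of the same library. The median region had 1.41%, and 99% of regions lay below 5.36%. In HepG2 the 8 regions had 0.129% and 0.151% 5hmC, 4 tags of 2879 in all, against 0.247% for the other tags. SAMD11, CA4, ITM2C, DHX58, KIRREL1 and CCDC6 had none in either HepG2 library, DPF1 had 1 and ETV4 had 3. A share of 0 in HepG2 is common: 41.8% of the 12484 regions with at least 100 tags in each line had it. The 8 regions together had more unmethylated tags in H1ES than the rest of the autosomes, 14.8% and 12.5% by library against 4.73% and 4.24%. KIRREL1 was the exception, with 4.28% over both libraries. This is not particular to the 8, since AHDC1, CNTFR, KCNH2, EEIG1 and CCDC85C, the regions most like them in 5hmC, had 6.99% to 21.8%.

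**Figure D1:**
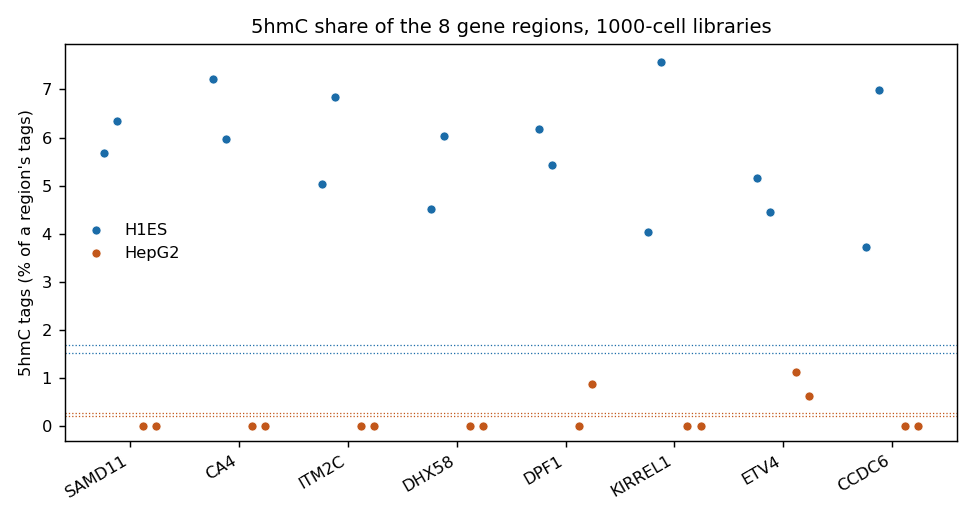
The 5hmC share (% of all tags of a region) is plotted for each of the 8 genes, with 1 point per 1000-cell library (H1ES blue, HepG2 orange). Dotted lines give the share of all other autosomal tags in each library. Every H1ES point lies between 3.72% and 7.57% and above the H1ES lines, and no HepG2 point exceeds 1.13%.

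Among themselves the 8 genes could not be ordered in H1ES, because the exact 95% (Clopper-Pearson) intervals of the pooled shares all overlapped. These intervals cover counting error only. They ran from 4.38% to 9.74% for the highest, CA4, and from 2.56% to 8.40% for the lowest, ETV4. The 2 libraries of a line could differ as much as the genes did: KIRREL1 was at 4.03% and 7.57%, and CCDC6 at 3.72% and 6.99%.

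Of the genes whose products act at the membrane, CA4 encodes a carbonic anhydrase anchored to the cell surface that interconverts carbon dioxide and bicarbonate. Its span is chr17:60149973-60179021. The H1ES 5hmC share was 7.21% (16 of 222 tags) and 5.96% (9 of 151), the highest pooled share of the 8 at 6.70%. The 25 tags fell on 14 sites, which lay from 60150394 to 60171716, in the lower 75% of the span. In HepG2 11 of these 14 sites were at least 50% unmethylated and none was fully 5mC. Site 60171716 shows this turn at a single position: H1ES had 1 unmethylated, 15 5mC and 4 5hmC tags there, and HepG2 had 16 unmethylated and 2 5mC tags. In 3 of the 4 H1ES single cells with a tag at that site, a 5hmC tag was among them. Over the whole region the unmethylated share was 16.7% and 13.2% in H1ES and 53.6% and 60.4% in HepG2, with no overlap.

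KIRREL1 encodes a cell adhesion protein of the immunoglobulin superfamily, a relative of nephrin that takes part in the kidney's filtration slit. Its span, chr1:157993645-158100262, held the most 5hmC tags of the 8, 39 of 701, in 16 of 397 and 23 of 304 tags by library. They were spread over 20 sites, 8 of them with 5hmC in both libraries. The span was read in 4 equal parts, counted from the lowest coordinates, which had 10.7%, 7.51%, 1.76% and 2.82% 5hmC. Only the intervals of the first part (6.12% to 17.1%) and the third (0.365% to 5.07%) were apart. Those of all other pairs overlapped, so a full order of the parts cannot be read. KIRREL1 was also the most methylated of the 8 in H1ES, with only 3.27% and 5.59% unmethylated tags, near the share of the whole library. In HepG2 47.1% and 38.1% were unmethylated, and 10 of the 20 5hmC sites were at least 50% unmethylated. At site 158043404 H1ES had 5 5hmC, 12 5mC and 3 unmethylated tags, and HepG2 had 14 unmethylated and 1 5mC tag. At site 158026287, also with 5 5hmC tags in H1ES, HepG2 was mixed, with 7 unmethylated and 11 5mC tags.

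ITM2C, on chr2:230864185-230879254, encodes a BRICHOS-domain membrane protein that binds the amyloid precursor protein. It had 9 5hmC tags of 179 and 10 of 146 in H1ES, or 5.03% and 6.85%, on 14 sites. The second of 4 equal parts of the gene, counted from its start, held 10 of the 19 tags, a share of 16.7%. None of the 14 sites was 50% unmethylated in HepG2, and 9 of them were fully 5mC. Site 230868329, 4144 bp from the start, had 6 unmethylated tags, 1 5hmC tag and no 5mC tag in H1ES, and 23 5mC tags and no other in HepG2. Here the site went from open in H1ES to methylated in HepG2, the reverse of CA4. Over the region the unmethylated share was 9.50% and 13% in H1ES against 14.6% and 14.4% in HepG2.

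Of the genes tied to transcription, SAMD11 encodes a nuclear protein with a SAM domain, best known from photoreceptors, and its span is chr1:923923-944574. Its 5hmC share in H1ES was 5.69% (12 of 211 tags) and 6.35% (8 of 126), on 14 sites. One of them, 923178, is at position -745 from the start, the only upstream 5hmC site among the 4 genes with a known strand. Over 4 equal parts of the span from its start, the H1ES share was 3.03% (1 of 33 tags), 3.67% (4 of 109), 6.80% (10 of 147) and 13.3% (4 of 30). The 95% intervals of the parts all overlapped, so no order along the gene can be read. In HepG2 11 of the 14 sites were at least 50% unmethylated. The region was 22.7% and 13.5% unmethylated in H1ES and 72.6% and 79.6% in HepG2, the highest of the 8. In the last of these parts 3 of 16 HepG2 tags and 9 of 30 H1ES tags were unmethylated, too few to tell the lines apart there.

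DPF1, on the minus strand of chr19:38211006-38229695, encodes a neural subunit of the BAF chromatin remodelling complex that reads histone tails through its PHD fingers. Its shares were 6.17% (10 of 162 tags) and 5.43% (5 of 92). A single site, 38217477, carried 6 of the 15 5hmC tags, 3 in each library, beside 15 5mC and 2 unmethylated tags, and it was the site with most 5hmC tags in all 8 regions. HepG2 had 10 5mC tags there and no other. The 3 5hmC sites nearest the start, 3722 to 5002 bp away, were at least 50% unmethylated in HepG2. The 3 sites from 12218 to 16787 bp were fully 5mC, while the farthest, 17814 bp from the start, had 3 unmethylated tags of 4. No HepG2 tag fell on the remaining one. The unmethylated share of the region was 24.1% and 27.2% in H1ES and 26.9% and 34.5% in HepG2, and these ranges overlapped.

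ETV4 encodes an ETS-family transcription factor that acts downstream of fibroblast growth factor signalling, and its span is chr17:43527846-43546340. It had 8 5hmC tags of 155 (5.16%) and 4 of 90 (4.44%). All 12 tags lay at the 45 sites that also fall in the region of DHX8, a gene for a splicing helicase, and there the share was 5.36% of 224 tags. The 23 sites outside it had no 5hmC among 21 tags, which allows a share of up to 14.3%, so the 5hmC read here belongs to both genes' regions alike. Of its 7 5hmC sites 1 was at least 50% unmethylated in HepG2. ETV4 was also where HepG2 had 3 of its 4 5hmC tags, at 3 sites with no 5hmC tag in H1ES.

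The remaining genes encode cytoplasmic proteins. DHX58, on chr17:42101411-42112714, encodes LGP2, a RIG-I-like helicase that binds viral RNA and regulates its relatives. It had 6 5hmC tags of 133 (4.51%) and 5 of 83 (6.02%), and site 42108181 carried 4 of the 11. Of its 41 sites 6 fall in the regions of KAT2A or ZNF385C, and 1 of the 11 5hmC tags lay there. None of its 6 5hmC sites was 50% unmethylated in HepG2. The region was 22.6% and 14.5% unmethylated in H1ES and 29.0% and 33.3% in HepG2.

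CCDC6 encodes a coiled-coil protein known as a fusion partner of RET in thyroid cancer, and lies on the minus strand of chr10:59788747-59906556. It had 7 5hmC tags of 188 (3.72%) and 10 of 143 (6.99%), on 10 sites. Site 59898669, 7887 bp from the start, had 5 of the 17 tags, 3 and 2 by library, and HepG2 had 11 5mC tags there and no other. In HepG2 9 of the 10 sites were fully 5mC, in a region where 84.3% of all HepG2 tags (225 of 267) were 5mC. The exception was 59865418, 41138 bp into the gene, with 2 5hmC, 5 5mC and 2 unmethylated tags in H1ES and 9 unmethylated and 1 5mC tag in HepG2.

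Across the 8 genes, 320 of the 703 sites had a tag in the H1ES 1000-cell libraries and 93 had a 5hmC tag, 26 of them in both. Of the 93, 91 lay within the spans. The exceptions were the upstream site of SAMD11 and site 42113524 of DHX58, which had 1 5hmC tag beyond the high end of the span. No site held more than 6 5hmC tags, and 55 of the 93 held 1. Whether a site is exonic or intronic was not analysed here, as the annotation used gives gene spans only.

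**Figure D2:**
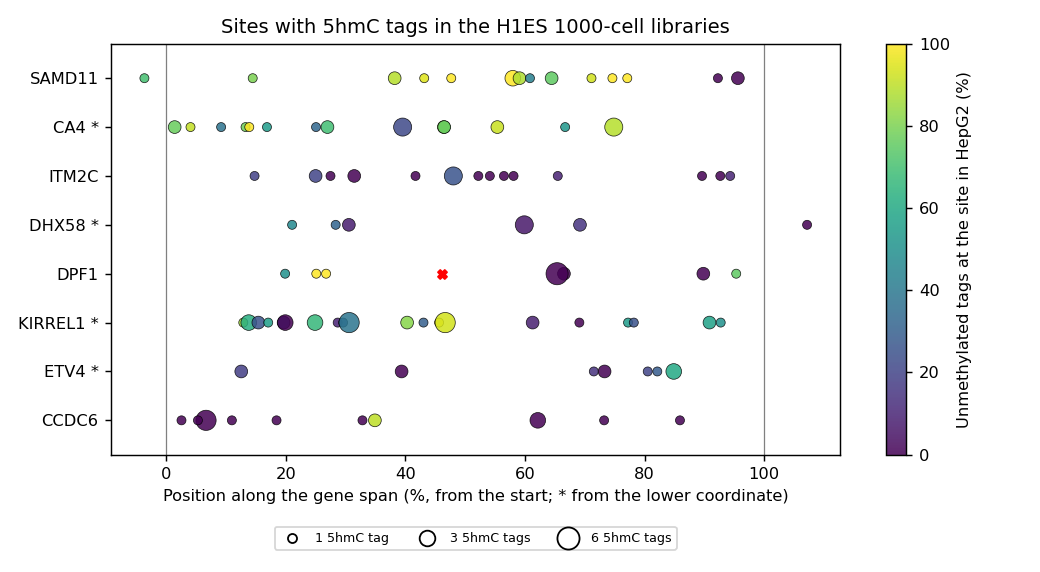
Each circle is a CCGG site with at least 1 5hmC tag in the H1ES 1000-cell libraries, placed along the span of its gene (%, from the start for SAMD11, ITM2C, DPF1 and CCDC6 and from the lower coordinate where marked *). Circle area gives the number of 5hmC tags, colour the unmethylated share in HepG2, and the red cross is the 1 site with no HepG2 tag. Sites of SAMD11 and CA4 are mostly light (11 of 14 each at least 50% unmethylated) and those of ITM2C and CCDC6 mostly dark (9 of 14 and 9 of 10 fully 5mC).

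At the H1ES 5hmC sites no 5hmC tag was seen in the HepG2 1000-cell libraries. At the 26 sites with 5hmC in both H1ES libraries, HepG2 had no 5hmC among 329 tags, which allows a share of up to 0.912%. At all 93 it had none among 1064, allowing up to 0.282%, which is above the 0.247% of HepG2's other autosomal tags, so a share lower than elsewhere in HepG2 was not detectable at this depth. HepG2's 4 5hmC tags came from the other 610 sites. At the 26 sites 35.4% and 37.8% of HepG2 tags were unmethylated by library and 64.6% and 62.2% were 5mC. At all 93 sites 39.3% and 39.1% were unmethylated, and at the 610 sites with no 5hmC in H1ES 36.1% and 36.5%. The 8 genes together thus looked much alike at marked and unmarked sites. The genes were split beneath this total. Of the 92 5hmC sites with HepG2 tags, 38 were at least 50% unmethylated and 28 fully 5mC. Of those 38, 32 lay in SAMD11, CA4 and KIRREL1. The whole regions of these genes were 75.5%, 56.9% and 42.6% unmethylated in HepG2, against 14.5% in ITM2C and 15.7% in CCDC6. The split is thus not shown to be particular to 5hmC sites, and the same classes were not counted at the other sites.

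The 5hmC tags of the 2 H1ES libraries fell on shared sites more than on others. At the 66 sites with 5hmC in the first library, the second had 13.9% 5hmC (41 of 296 tags, interval 10.1% to 18.3%), and 3.93% at the other sites (33 of 839, 2.72% to 5.48%). With the roles exchanged the shares were 9.20% (37 of 402) and 3.78% (47 of 1245). The sites were chosen in a library other than the one read, although the genes were chosen on H1ES as a whole.

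The share was also read by how crowded the sites were. Sites with at most 2 other CCGG within 500 bp had 5.85% 5hmC in the 8 regions against 1.56% at such sites on all autosomes. At 3 to 9 neighbours it was 5.43% against 1.93%. Where 10 or more CCGG lay within 500 bp, as in CpG islands, 3 of 66 tags (4.55%, interval 0.947% to 12.7%) were 5hmC against 1.12%, too few to tell apart, and 83.3% were unmethylated.

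The single cells gave a lower share at the same regions. Pooled, the 5 H1ES cells had 38 5hmC tags of 1152, or 3.30% (interval 2.34% to 4.50%), which is 2.29 times the 1.44% of their other autosomal tags. The cells, 1 library each, had 2.5%, 4.18%, 7.07%, 1.17% and 3.21%. The fourth cell, with most tags, lay below its own share elsewhere, 1.48%, and the other 4 lay above theirs. By gene, CA4 was highest with 8.09% (11 of 136 tags) and SAMD11 next with 4.76% (6 of 126). The lowest were KIRREL1 with 5 of 277 tags, or 1.81%, and DPF1 with 2 of 118, or 1.69%. In 6 of the 8 genes, all but CA4 and SAMD11, the interval took in the 1.44% of the other tags. The 5 HepG2 cells had 3 5hmC tags of 1655 in the 8 regions. Whether the single cells entered the choice of the genes is not stated, so these shares are given without a test.

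Pooled over the H1ES cells, the 5hmC share was higher at the sites marked in the 1000-cell libraries. At the 26 sites marked in both, 10.9% of the cells' tags were 5hmC (11 of 101). At the 67 sites marked in one, it was 5.24% (15 of 286), and at the rest 1.57% (12 of 765). These shares pool cells that differ and are not tested. By cell, the share at the 26 sites was 8.70%, 13%, 17.6%, 0% and 16.7%, on 17 to 23 tags each. The fourth cell, the deepest, did not show this pattern: it had no 5hmC among 20 tags at the 26 sites (a share of up to 15% is allowed) or among 95 tags at the 67 sites (up to 3.16%), and its 4 5hmC tags all lay among the 227 at the rest. HepG2 cells had 1 5hmC tag of 191 at the same 26 sites.

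**Figure D3:**
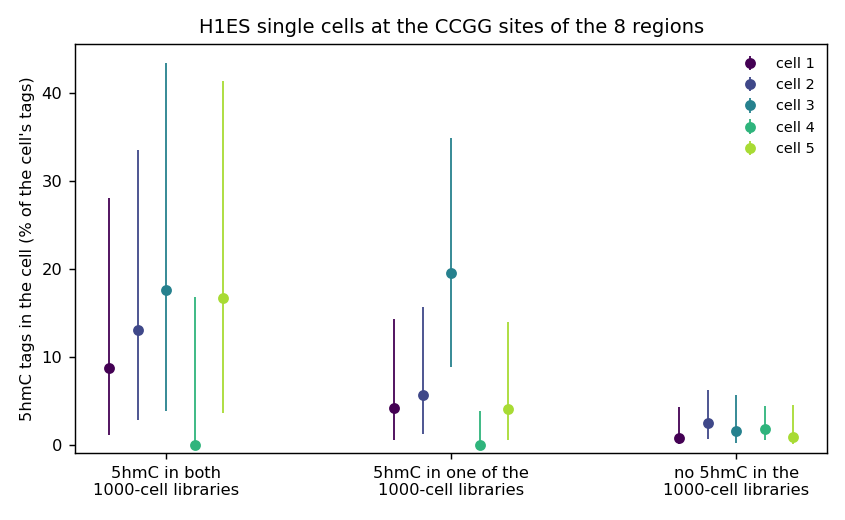
The 5hmC share of each H1ES single cell (% of the cell's tags, with exact 95% intervals) is plotted at 3 kinds of CCGG sites of the 8 regions, sorted by whether the 1000-cell libraries had 5hmC there. Cells 1, 2, 3 and 5 reach 8.70% to 17.6% at sites marked in both libraries, and every cell lies at or below 2.45% at sites marked in neither.

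The change of methylation between the lines was tested on 5mC and unmethylated tags alone, with 5hmC tags left out because they chose the genes. Relative to H1ES, 5mC fell in HepG2 in 4 of the 8 genes and rose in none, by edgeR's quasi-likelihood test with Benjamini-Hochberg adjustment over 15707 gene regions. Of all regions tested, 60.6% were lower and 2.27% higher in HepG2, so a count of 4 of 8 is near the background. The median log2 odds of 5mC changed by -1.62 over all regions and by -0.67 over the 8 genes.

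KIRREL1 fell most, by 3.95 on the log2 odds scale (SE 0.26, adjusted p = 9.02e-51): its unmethylated share was 4.43% ± 1.64 in H1ES and 42.6% ± 6.37 in HepG2 (SD, n = 2 each; edgeR). SAMD11 fell by 3.58 (SE 0.28, adjusted p = 3.09e-36, edgeR), with 18.1% ± 6.55 and 76.1% ± 5.01 unmethylated. CA4 fell by 2.75 (SE 0.25, adjusted p = 5.32e-27, edgeR), with 15% ± 2.42 and 57.0% ± 4.79. The size of these p-values depends on the method. In limma the adjusted p was 0.000423 for KIRREL1, 0.000615 for SAMD11 and 0.000647 for CA4. They rest on the spread between 2 libraries of a line, which may be technical. In these 3 genes every HepG2 library lay above both H1ES libraries in unmethylated share, as it did, by less, in DHX58, ITM2C, ETV4 and CCDC6; only DPF1 overlapped. DHX58 passed narrowly, with a log2 odds change of -0.80 (SE 0.31, adjusted p = 0.0172, edgeR), and did not pass in 5 other settings, with adjusted p = 0.151 in DESeq2 and 0.0762 in limma. ITM2C (-0.34, adjusted p = 0.398), CCDC6 (-0.53, 0.211), ETV4 (-0.35, 0.308) and DPF1 (-0.25, 0.493) did not pass in edgeR, which does not show that they stayed the same.

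Over the autosomes together HepG2 is less methylated than H1ES. The same test was therefore also run relative to each library's own odds of 5mC. On that scale 27.6% of regions were lower and 48.1% higher in HepG2, and the median change was 0.94. SAMD11 (-0.97) and KIRREL1 (-1.35) were still lower, CA4 (-0.14) did not pass, and ITM2C (2.27), DHX58 (1.80), DPF1 (2.35), ETV4 (2.24) and CCDC6 (2.07) were higher. Over their whole regions, these 5 genes thus differed less between the lines than the libraries as a whole did. SAMD11 and KIRREL1 differed more. A whole region can hide opposite shifts. Of 4 equal parts of the DPF1 span, the one with the lowest coordinates was 47.1% unmethylated in H1ES and 11.4% in HepG2, libraries pooled. The third part was 24.1% and 55.9%. In DHX58 the same parts were 23.5% and 64.1%, and 33.3% and 20.5%.

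**Figure D4:**
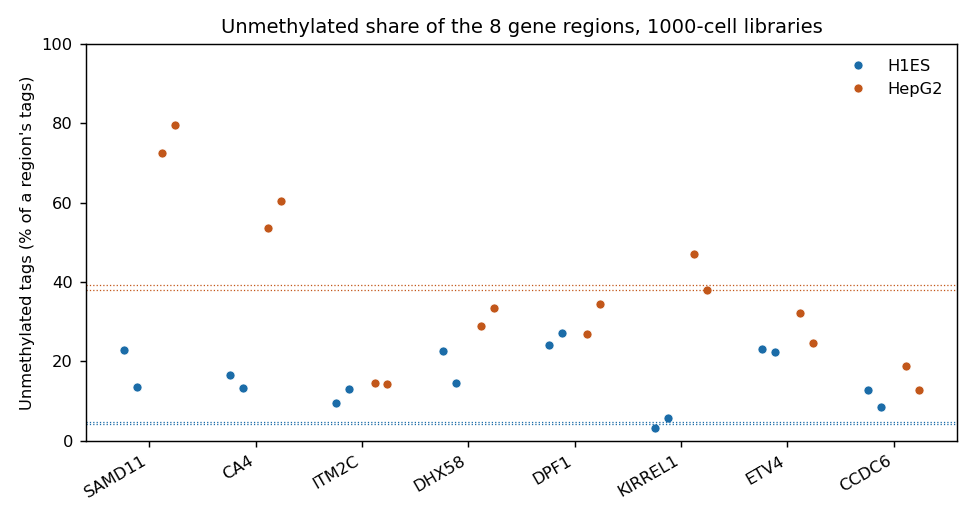
The unmethylated share (% of all tags of a region) is plotted for each of the 8 genes, with 1 point per 1000-cell library (H1ES blue, HepG2 orange) and dotted lines for all other autosomal tags of each library. SAMD11, CA4 and KIRREL1 show a wide gap between the lines, with HepG2 at 38.1% to 79.6%, while the points of DPF1 and CCDC6 overlap or nearly meet.

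Other genes were read from lists chosen by function. Of 14 relatives of the 8 (other carbonic anhydrases, ITM2, DPF, KIRREL and ETV genes, SAMD7 and the RIG-I-like receptors), 11 had at least 100 H1ES tags. Their median 5hmC share was 1.22%, near the 1.41% of all regions, and 5 were above it. The highest were KIRREL3 at 3.12%, CA12 at 2.72% and DPF3 at 2.62%. In the methylation test 9 of 13 relatives fell in HepG2 and none rose, where 60.6% of all regions fell; relative to each library's odds 3 were lower and 4 higher. Of 14 genes that write, oxidise or remove 5mC or are linked to these steps, 12 had enough tags, with a median of 2.09%. The highest were DNMT3A, a de novo methyltransferase, at 4.65%, CXXC5, a CpG-binding protein, at 3.76%, and TET3, a TET dioxygenase, at 3.49%. Of 12 tested, 4 fell and none rose, and relative to each library's odds none was lower and 8 were higher.

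By H1ES 5hmC share, with at least 20 5hmC tags and 100 tags in each line, the regions most like the 8 were AHDC1 (6.0%), CNTFR (5.62%), KCNH2 (5.45%), EEIG1 (5.15%) and CCDC85C (5.01%), from 1141 candidates. Of the 8 only 3 have that many 5hmC tags themselves. All 5 fell in 5mC in HepG2 by edgeR, where 60.6% of all regions did, from -1.09 for CCDC85C to -3.87 for KCNH2, a potassium channel of the heart. Relative to each library's odds 3 of them were higher, AHDC1 (1.48), CCDC85C (1.52) and EEIG1 (1.11), and KCNH2 was lower.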

How the data were processed

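DARESOME libraries of H1ES and HepG2 were analysed (14 of 19 libraries; the 5 mouse cerebellum libraries were not used here). The deposited tables have no header. Per CCGG site they give a deposited fraction each of unmethylated, 5mC and 5hmC tags and the deposited count of tags. Which fraction is which is not stated in the files and was taken from their levels, 5mC being the larger of the modified ones. The tools were cutadapt 1.5, Bowtie2 2.3.4.1 and UMI-tools 0.5.4 with hg38, per the submitters' processing notes. How tags were assigned and deduplicated is not given in the sources used here. Fraction times count was whole within 0.0014 and gave the tags. Positions are the second C of CCGG on the plus strand, as all CCGG of the members' RefSeq promoters matched.

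Genes are RefSeq GRCh38.p14 spans. The strand was known for 15101 genes, and 2000 bp were added at the start. For the other 4025, among them CA4, DHX58, KIRREL1 and ETV4, 2000 bp were added at both ends. Members, gene lists and tests were chosen with earlier results of these data known. Genes named beyond the 8 are the 3 of each list and the 5 candidates with the highest H1ES 5hmC share, and genes whose region overlaps. Marker genes checked the labels; LIN28A, DNMT3L, TDGF1 and APOC3 had no start in the tables used, and APOA2 had no site.

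The test used edgeR 4.0.16 in R 4.3.3: 1 term per library, 1 for the mark and 1 for the mark in HepG2, on regions with at least 20 tags in every library, threshold 0.05, two-sided. On simulated data made from these libraries it recovered 21% of regions changed 2-fold and 69% changed 4-fold in odds, with 2 of 15507 unchanged regions called. Only 200 regions were changed in the simulation, whereas 9878 were called in the data, so these rates need not hold for the data. Alternatives used DESeq2 1.42.0 and limma 3.58.1 (logit shares, pseudocount 0.5), other tag minimums, regions, scaling and left-out libraries. Intervals are Clopper-Pearson at 95%; beside a share of 0 stands the share that 3 tags would make. Shares and figures used Python 3.11.15, SciPy 1.17.1 and matplotlib 3.10.9.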

Additional observations from a re-analysis of the deposited data

Results flagged for a closer look

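Among the 5 H1ES single cells, the third had 9.24% unmethylated tags in the 8 regions (17 of 184, interval 5.47% to 14.4%). It lay apart from the nearest other cell at 13.4% (25 of 187, 8.84% to 19.1%), a gap large for the range of the 5 cells. The intervals overlapped, and the flag does not weigh tag counts. The third cell also had the highest 5hmC share there, 7.07%. Of the 4 sets of 5 cells looked at (5hmC and unmethylated shares in each line), this was the only one with a cell set apart, and chance alone sets apart about 1 in 20 such sets.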

How the results depend on the processing

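Scaling to each library's odds of 5mC reversed ITM2C (2.27), DHX58 (1.80), DPF1 (2.35), ETV4 (2.24) and CCDC6 (2.07), and left 2 of the 8 genes lower instead of 4. Among all regions it gave 4332 lower and 7550 higher in place of 9522 and 356; the other settings gave 7664 to 11035 called regions. Leaving out 1 library gave 8743 to 9255. DHX58 alone lost its call otherwise: in DESeq2, in limma, over the span only (adjusted p = 0.0759) and without the second library of H1ES (0.186) or of HepG2 (0.117). The cause was not tested. Replicate numbers are shared between the lines, but their deviations hardly correlated (0.0225), so the numbers are not taken as pairs; with a replicate block 9782 regions were called against 9878, and no call of the 8 changed. The HepG2 5hmC share was 0.110% over spans only, and the unmethylated and 5mC shares at the H1ES 5hmC sites were 39.2% and 60.8% with 1 tag over both libraries in place of 1 in each. Reading the first H1ES library at sites chosen in the second gave 9.20%. Leaving out 1 of the H1ES cells, chosen as a setting after seeing the data, gave 2.58% to 4.20% in the 8 regions and 9.52% to 13.6% at the 26 sites. Without its richest site, DHX58 had 3.45% and DPF1 3.90% 5hmC in H1ES, and ETV4 had 0% without the sites shared with DHX8; its test without them could not be run. Depth limits most single sites to a few 5hmC tags.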
